A study of Mus musculus with 3 samples.

Results

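This account follows 7 genes that encode potassium channel subunits and efferent acetylcholine receptor subunits of cochlear hair cells: *Kcna10*, *Kcnma1*, *Kcnab1*, *Lrrc52*, *Kcnn2*, *Chrna9* and *Chrna10*. They were taken by symbol from the 32285 genes of the count tables, with earlier results of these data known. All 7 had unique molecular identifiers (UMIs, each standing for 1 captured RNA molecule) in all 3 libraries. The libraries came from dissociated cochleae of mice of the strain labelled C57/B6, with 1 library at postnatal day 14 (P14) and 2 at postnatal day 28 (P28, replicates 1 and 2). The labels name no transgene and no treatment for any library. Each library pooled 14 cochleae of 7 mice, and the tissue came mainly from the upper basal to the apical turns, so that the hair cells of the lower base are under-represented. With 1 library at P14, age and library cannot be told apart.

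Hair cells turn the deflection of their stereocilia into a current carried largely by potassium, which leaves the cell through channels in its basolateral membrane. Inner hair cells (IHCs) pass the signal to spiral ganglion neurons (SGNs), and the large BK current, gated by voltage and calcium, keeps their receptor potential fast. Outer hair cells (OHCs) amplify the vibration, and efferent fibres from the brainstem restrain them: acetylcholine opens receptors assembled from the products of *Chrna9* and *Chrna10*, calcium enters, and the SK channel encoded by *Kcnn2* opens in turn and hyperpolarizes the cell. *Kcna10* encodes a voltage-gated alpha subunit of the shaker-related family, and *Kcnab1* a cytoplasmic beta subunit that modifies such channels. *Kcnma1* encodes the pore-forming alpha subunit of the BK channel, and *Lrrc52* a leucine-rich repeat protein that acts as an accessory subunit of large conductance potassium channels.

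Positions were read for 6 of the 7 genes, without *Kcnn2*, and these lie apart in the genome (GRCm38, GENCODE M21). *Kcna10* spans chr3:107183056-107195721 and *Kcnab1* chr3:65109384-65378223 on the plus strand, *Chrna9* spans chr5:65934921-65977326 on the plus strand, and *Kcnma1* (chr14:23289431-24014491), *Lrrc52* (chr1:167445669-167466780) and *Chrna10* (chr7:102111266-102116828) lie on the minus strand. All 6 are annotated as protein-coding. Exons of *Chrna10* overlap those of *Art1* on the opposite strand, exons of *Kcnma1* those of *4930519K11Rik* and exons of *Kcnab1* those of *A330015K06Rik*; none of the 6 shares exonic positions with a gene on its own strand. RefSeq promoters (GRCm38.p6) were matched for 6 of the 7 genes. The 4 shown here belong to the members that differed most between OHC-like cells and cells other than hair cells, and each is the stretch upstream of the RefSeq start that lies outside annotated exons, 5′ to 3′ on the gene's strand, except that the *Chrna9* window lies within the longer GENCODE model of that gene.
Chrna9, chr5:65966874-65967123, plus strand: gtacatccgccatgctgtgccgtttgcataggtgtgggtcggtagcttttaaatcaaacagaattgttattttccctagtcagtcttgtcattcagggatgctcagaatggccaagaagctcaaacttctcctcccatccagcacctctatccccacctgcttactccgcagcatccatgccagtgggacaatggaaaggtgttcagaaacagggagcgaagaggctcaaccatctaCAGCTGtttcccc
Chrna10, chr7:102116829-102116963, minus strand: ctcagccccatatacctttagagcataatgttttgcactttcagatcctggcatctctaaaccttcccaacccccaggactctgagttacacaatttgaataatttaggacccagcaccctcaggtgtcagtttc
Kcna10, chr3:107182893-107183055, plus strand: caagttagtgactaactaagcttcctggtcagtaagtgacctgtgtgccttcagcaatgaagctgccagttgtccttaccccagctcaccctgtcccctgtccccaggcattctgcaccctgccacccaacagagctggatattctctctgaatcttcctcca
Lrrc52, chr1:167466781-167467030, minus strand: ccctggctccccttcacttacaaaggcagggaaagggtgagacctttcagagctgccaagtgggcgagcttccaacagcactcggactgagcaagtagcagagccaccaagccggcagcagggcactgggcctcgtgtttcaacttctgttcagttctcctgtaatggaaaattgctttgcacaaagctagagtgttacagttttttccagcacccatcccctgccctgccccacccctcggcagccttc
Capitals mark CAGCTG, an E-box. Both strands were searched for the E-boxes CAGCTG and CAGATG, for TATAAA and for the octamer ATTTGCAT, and the *Chrna9* window held CAGCTG once while the other 3 windows held none of the 4. Over 32851 RefSeq promoters, CAGCTG occurred in 13% of windows of 250 bases, CAGATG in 14.4%, TATAAA in 12.4% and ATTTGCAT in 1.60%. In the shorter window of *Chrna10* (135 bases) the shares were 6.83%, 8.05%, 6.70% and 0.843%, and in that of *Kcna10* (163 bases) 8.20%, 9.88%, 7.78% and 1.03%. A match of letters describes the sequence and is not evidence of binding.

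After cells with 200 to 6000 genes and at most 15% mitochondrial UMIs were kept, 1662 of 2513 barcodes remained at P14, 5649 of 11948 in P28 replicate 1 and 7065 of 18196 in P28 replicate 2, and the libraries held 10125255, 35485894 and 37530956 UMIs before this filter. Clusters were made without the 7 genes and named from other markers, so that a member's level played no part in naming a class. OHC-like cells numbered 276, 364 and 284 in the P14 library and the P28 replicates, IHC-like cells 60, 114 and 76, and SGN-like cells 333 and 296 at P28 with none named at P14. All 5 OHC markers (among them *Slc26a5* and *Ocm*) had UMIs in OHC-like cells, with a summed level of 23119 to 37328 CPM (counts of a gene per 1000000 UMIs of the class), and all 5 IHC markers (among them *Slc17a8* and *Otof*) had UMIs in IHC-like cells at 9557 to 10566 CPM. The P14 library also differed from the P28 libraries in RNA composition and depth, and these differences cannot be told apart from age. The long nuclear RNA *Malat1* took 5.70% of the UMIs of OHC-like cells at P14 against 1.12% and 1.35% at P28, and 4.24% against 0.900% and 0.899% in IHC-like cells. The median IHC-like cell held 1025.5 UMIs at P14 against 9130 and 8006.5 at P28, whereas OHC-like medians were 6482.5, 5247 and 3752.5. Pairs of libraries shared 4, 7 and 10 of the barcodes kept.

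In summed UMIs the 7 genes fell into 3 kinds of profile. *Chrna9*, *Chrna10* and *Kcnn2* were highest in OHC-like cells, *Kcnab1* in IHC-like cells, and *Kcna10*, *Lrrc52* and *Kcnma1* were high in both hair cell classes. Levels are given as CPM with exact 95% Poisson intervals, which cover counting error only, and counts of 3′ ends were not compared between genes. The values in all classes and libraries appear in the plot of levels by class.

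**Figure D1:**
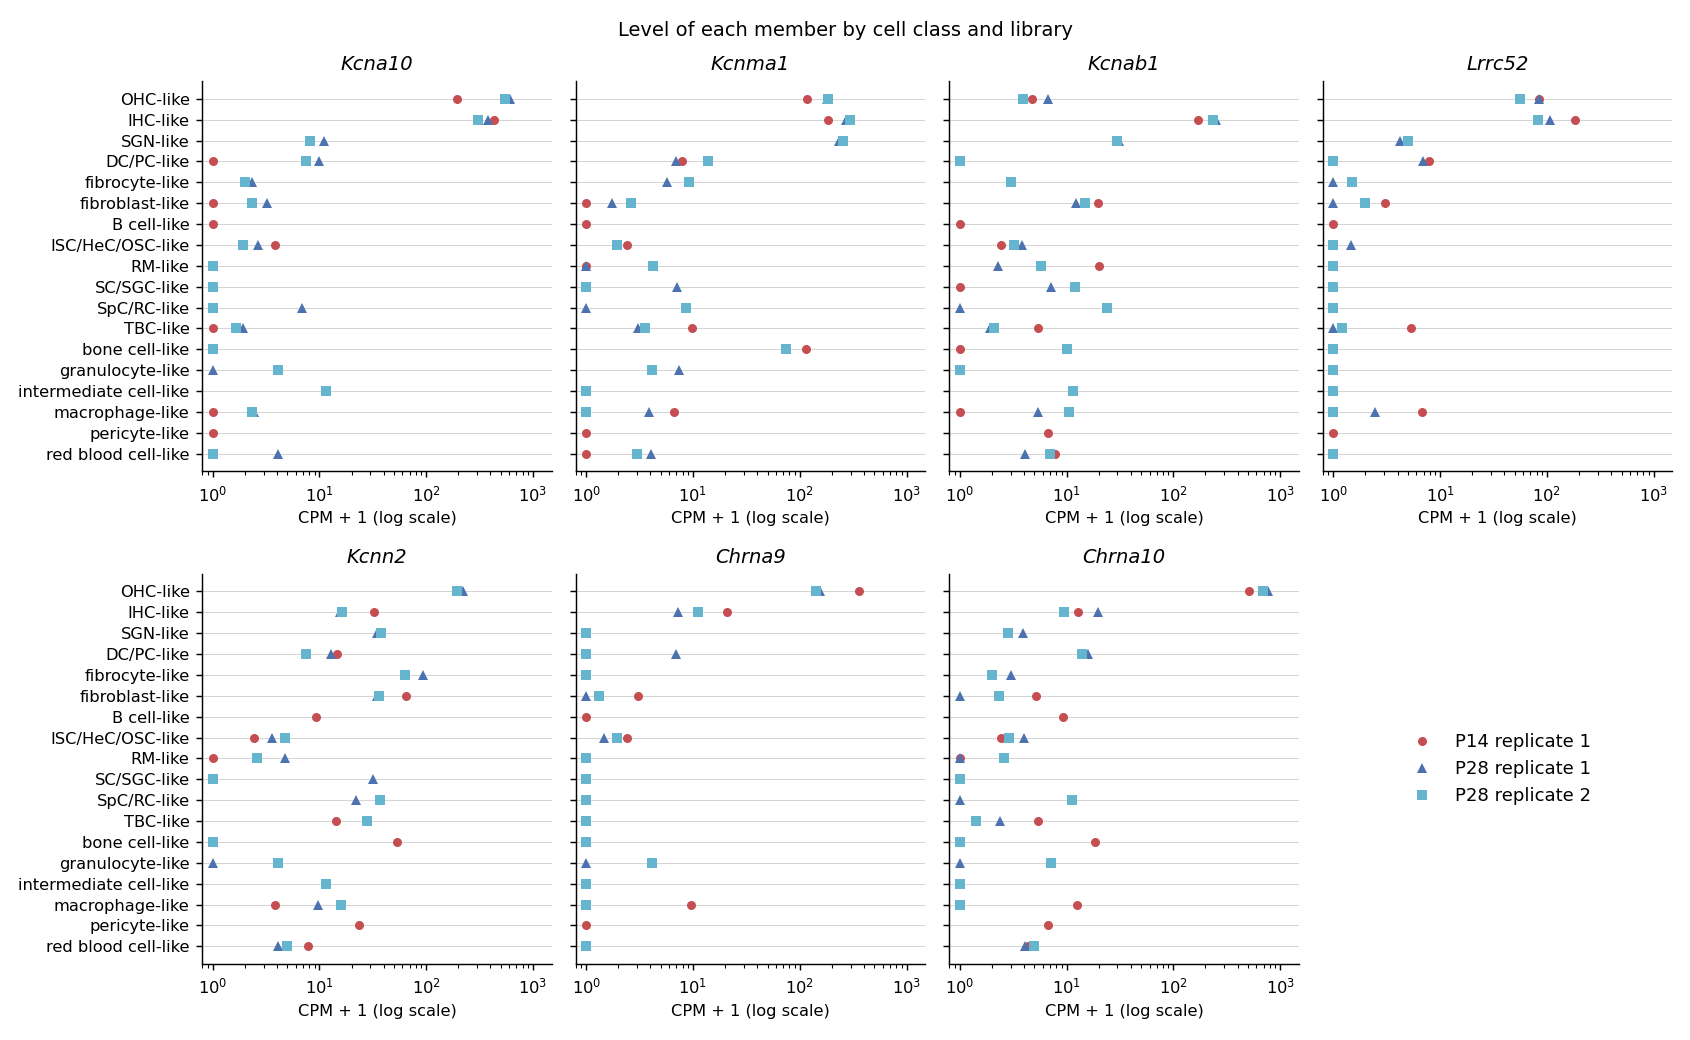
Level of each of the 7 genes (CPM + 1, log scale) in every named class with at least 20 cells in a library; a point is 1 library, red for P14 and blue shades for the P28 replicates. *Chrna9* and *Chrna10* stand out in OHC-like cells, *Kcnab1* in IHC-like cells, and *Kcnma1* reaches 234 and 255 CPM in SGN-like cells as well.

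Among the efferent receptor subunits, *Chrna10* measured 508 CPM (477 to 542) in OHC-like cells at P14, 775 (741 to 811) in P28 replicate 1 and 691 (648 to 736) in P28 replicate 2. In IHC-like cells it measured 11.9, 18.6 and 8.41 CPM from 3, 18 and 5 UMIs. In all cells other than hair cells it measured 4.70, 2.03 and 1.5 CPM. Every OHC-like interval thus lay above every IHC-like interval. *Chrna9* measured 355 CPM (328 to 383), 154 (139 to 171) and 140 (121 to 161) in OHC-like cells, in the same order of libraries. It measured 19.8, 6.19 and 10.1 CPM in IHC-like cells from 5, 6 and 6 UMIs. The level outside hair cells was 1.32, 0.236 and 0.235 CPM. The OHC-like and IHC-like intervals of *Chrna9* did not overlap in any library, and no UMI of it was found in SGN-like cells, where a count of 0 allows up to 0.877 and 0.926 CPM and a UMI in up to 0.901% and 1.01% of the cells. Transcripts of other OHC genes were also counted in IHC-like cells: *Ocm*, which stood at 16982 to 33535 CPM in the largest OHC-like cluster of each library, measured 151, 267 and 329 CPM in the main IHC-like clusters. The part of such transcripts in the IHC-like UMIs of *Chrna9* and *Chrna10* was not tested.

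*Kcnn2*, the SK channel coupled to these receptors, measured 200 CPM (180 to 221), 219 (201 to 238) and 192 (169 to 216) in OHC-like cells. These intervals overlap in all 3 libraries. In IHC-like cells it measured 31.7, 14.4 and 15.1 CPM, and outside hair cells 13.6, 24.1 and 25.5 CPM. *Kcnn2* was therefore counted in the pooled other cells at levels near those of IHC-like cells. At P28 it was higher in fibrocyte-like cells (92.9 and 62.1 CPM) than in any other class after OHC-like cells. Mean levels at P28 (± SD, n = 2) ran from 205 ± 19.0 CPM in OHC-like cells to 77.5 ± 21.8 in fibrocyte-like, 35.2 ± 2.21 in SGN-like and 34.5 ± 0.751 in fibroblast-like cells, and the ranges of the last 2 overlapped. At P14, where no cluster was named fibrocyte-like, fibroblast-like cells came next after OHC-like cells at 63.9 CPM (43.4 to 90.7).

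Among the voltage-gated subunits, *Kcna10* measured 194 CPM (175 to 215), 611 (580 to 643) and 542 (504 to 582) in OHC-like cells. In IHC-like cells it measured 432 CPM (355 to 521), 376 (339 to 417) and 306 (263 to 354). The order of the hair cell classes thus differed between the ages, with IHC-like cells higher at P14 and OHC-like cells higher in both P28 libraries. Cells other than hair cells held 0.564, 3.12 and 2.25 CPM. At P28 the order ran from OHC-like (577 ± 48.5 CPM, n = 2) to IHC-like (341 ± 49.7), SGN-like (8.52 ± 2.01) and DC/PC-like cells (7.64 ± 1.72, Deiters and pillar cell markers), and only the last 2 overlapped. *Kcnab1* was low in OHC-like cells at 3.75, 5.67 and 2.88 CPM, from 7, 14 and 4 UMIs. It measured 170 CPM (123 to 229), 249 (218 to 282) and 234 (197 to 276) in IHC-like cells. Its level in OHC-like cells was no higher than outside hair cells (4.33, 7.66 and 8.72 CPM). At P28 IHC-like cells (241 ± 10.4 CPM) were followed by SGN-like cells at 29.1 ± 0.999 CPM and fibroblast-like cells at 12.6 ± 1.81 CPM, and the ranges of these 3 classes did not overlap.

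The BK alpha subunit gene *Kcnma1* was counted in both hair cell classes and in neurons. It measured 115 CPM (99.9 to 131), 178 (162 to 195) and 185 (163 to 209) in OHC-like cells and 182 (133 to 243), 270 (238 to 305) and 296 (254 to 343) in IHC-like cells. The IHC-like value was the higher in all 3 libraries, and the intervals of the classes did not overlap in any library. At P14 this order turned in the cells of at most 3000 genes, with 57.4 CPM (15.6 to 147, from 4 UMIs) in IHC-like and 134 (110 to 161) in OHC-like cells, and in thinned cells, with 64.5 CPM (7.81 to 233, from 2 UMIs) and 116 (78.2 to 165), the intervals overlapping in both. SGN-like cells, at 234 and 255 CPM, lay between the hair cell classes, and the P28 order IHC-like (283 ± 18.3), SGN-like (245 ± 15.0) and OHC-like (181 ± 4.78) had no overlapping neighbours down to DC/PC-like cells at 9.37 ± 4.91 CPM. At P14 bone cell-like cells measured 114 CPM (60.8 to 195) from 13 UMIs, beside 115 CPM in OHC-like cells. *Lrrc52* measured 84.2 CPM (71.5 to 98.4), 84.3 (73.2 to 96.5) and 54.8 (43.2 to 68.6) in OHC-like cells and 182 (133 to 243), 105 (85.8 to 128) and 82.4 (61.0 to 109) in IHC-like cells. Cells other than hair cells held 2.07, 0.945 and 0.891 CPM. *Lrrc52* was thus a gene of both hair cell classes, and at P28 its ranges in IHC-like (93.8 ± 16.1) and OHC-like cells (69.5 ± 20.8) overlapped, while the next class, SGN-like cells, was at 3.61 ± 0.564 CPM. In the unnamed clusters (450, 683 and 927 cells) no member exceeded 13.7 CPM.

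To set the single cells beside these sums, each cell was thinned to 1000 UMIs. *Chrna10* was then seen in 37.8%, 59.8% and 48.9% of the OHC-like cells (89.5%, 97.0% and 91.2% without thinning), and in 0 of 63, 209 and 273 macrophage-like cells, which serve as the background. *Chrna9* was seen in 71 of 259, 57 of 363 and 34 of 284 OHC-like cells of at least that depth (80.4%, 62.4% and 47.5% without thinning) and likewise in none of the macrophage-like cells. Without thinning, macrophage-like cells at P14 held 4 UMIs of *Chrna10* and 3 of *Chrna9*. *Kcna10* had a UMI in 12.7%, 43.0% and 41.5% of the OHC-like and in 35.5%, 28.3% and 27.8% of the IHC-like cells (unthinned 49.3%, 90.9% and 77.8%, and 51.7%, 74.6% and 80.3%), against at most 0.478% of macrophage-like cells. *Kcnab1* had a UMI in 12.9%, 23.2% and 25% of the IHC-like cells (18 of 60, 71.1% and 76.3% unthinned) and in 0%, 0.275% and 0% of OHC-like cells, against at most 0.733% of macrophage-like cells. The median depth of macrophage-like cells before thinning was 3591, 2256.5 and 2040 UMIs. Some other classes lay above this background. At P28 DC/PC-like cells held *Chrna10* at 14.8 and 12.8 CPM. In 1 SGN-like cluster *Kcna10* had a UMI in 5.31% and 5.13% of the thinned cells of the P28 replicates. At this depth no UMI of any member was seen in 25.1%, 13.5% and 13.7% of OHC-like cells and in 35.5%, 40.4% and 38.9% of IHC-like cells, as compared with 98.4%, 98.6% and 98.5% of macrophage-like cells. *Chrna9* and *Chrna10* were both seen in 10.8%, 11% and 6.34% of OHC-like cells. Among OHC-like cells with a *Chrna9* UMI, 39.4%, 70.2% and 52.9% also held *Chrna10*, compared with 37.2%, 57.8% and 48.4% of those without; these differences were not tested. For *Chrna9* and *Kcnn2* the shares holding *Kcnn2* were 19.7%, 21.1% and 14.7% with a *Chrna9* UMI and 18.6%, 22.5% and 18.0% without.

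The hair cell classes were set against each other on UMIs summed per class and library (edgeR's quasi-likelihood test on 3 sums of each, library as a term, Benjamini-Hochberg adjustment over 10271 genes, threshold 0.05). The libraries of both ages enter together. The library term takes up a change with age that both classes share, while one that differs between the classes stays in the spread. Of the 7 genes, OHC-like cells were called higher in 3 and lower in 2, while over all genes tested 17.2% were called higher and 18.1% lower. *Chrna10* had a log2 fold change of OHC-like over IHC-like cells equal to 5.82 (SE 0.24, adjusted p = 2.26e-07). *Chrna9* was higher by 4.37 (SE 0.24, adjusted p = 9.03e-07) and *Kcnn2* by 3.70 (SE 0.25, adjusted p = 3.27e-06), so the receptor subunits and their SK channel differed in the same direction in all 3 libraries. *Kcnab1* was lower in OHC-like cells, at -5.48 on the log2 scale (SE 0.23, adjusted p = 2.45e-07). *Kcnma1* was lower by a smaller amount, -0.49 (SE 0.14, adjusted p = 0.0229), with IHC-like over OHC-like ratios of 1.59, 1.52 and 1.60 in the 3 libraries. This call was past the threshold in 7 of 14 alternatives and was lost without the library term (adjusted p = 0.198). It was also lost without either P28 replicate, in fits with 1 residual degree of freedom, for which no p-value is given. For *Lrrc52* the log2 fold change was -0.48 (SE 0.19, adjusted p = 0.0744), with values of -1.11, -0.32 and -0.59 in the libraries. For *Kcna10* it was 0.34 (SE 0.32, adjusted p = 0.447), with values of -1.15, 0.70 and 0.83. Without the P14 library it became 0.87, again from a fit with 1 residual degree of freedom, so no p-value is given for it. *Kcna10* was past the threshold in 1 of 14 alternatives. The plot of the class ratios shows these values by library.

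**Figure D2:**
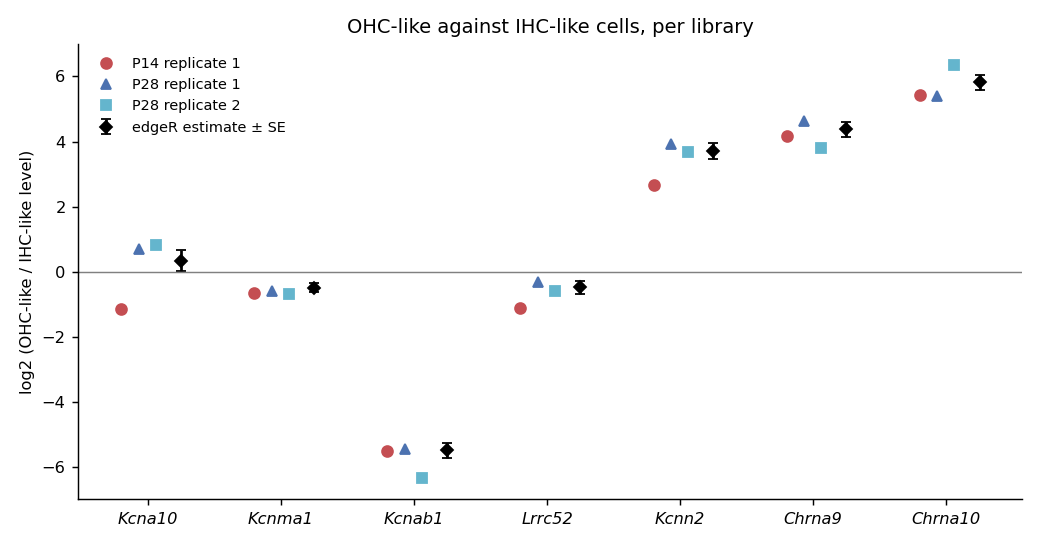
Log2 ratio of the OHC-like to the IHC-like level for each gene: coloured points are the 3 libraries and black diamonds the edgeR estimate with its standard error. The efferent receptor subunits and *Kcnn2* lie between 2.65 and 6.36 in every library and *Kcnab1* between -6.34 and -5.45, whereas the P14 point of *Kcna10* (-1.15) is on the other side of 0 from both P28 points (0.70 and 0.83).

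Against all cells other than hair cells, 6 of the 7 genes were higher in OHC-like cells and none was lower (edgeR, 3 sums against 3 with a library term; over 13827 genes 25.4% were higher and 31.3% lower). The log2 fold changes were 8.96 for *Chrna9* (SE 0.32, adjusted p = 0.000493), 8.25 for *Chrna10* (SE 0.56, adjusted p = 0.00145), 8.01 for *Kcna10* (SE 0.22, adjusted p = 0.000493) and 6.11 for *Lrrc52* (SE 0.29, adjusted p = 0.000761). Of the 7 genes these 4 had the largest differences from the other cells, and in each library their OHC-like interval lay above that of the other cells. All 4 were low in the other cells and passed the filter on low counts through the OHC-like sums. The other-cell sums held 7, 5 and 5 UMIs of *Chrna9* and 11, 20 and 19 of *Lrrc52*. They held 3, 66 and 48 UMIs of *Kcna10* and 25, 43 and 32 of *Chrna10*. The size of these fold changes, and so their order, is poorly known. *Kcnn2* was higher by 3.46 (SE 0.25, adjusted p = 0.00168) and *Kcnma1* by 2.97 (SE 0.55, adjusted p = 0.0125). *Kcnab1* was not called, at -0.53 (SE 0.39, adjusted p = 0.298). The other cells include the SGN-like cells, which also held *Kcnma1*: with them left out, an alternative chosen after the data were seen, its log2 fold change was 5.57. Without P28 replicate 1 the *Kcnma1* call was lost, in a fit with 1 residual degree of freedom.

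In IHC-like cells, again 6 of the 7 genes were higher than in cells other than hair cells and none was lower (over 13525 genes 12.8% were higher and 25.1% lower). The log2 fold changes were 7.20 for *Kcna10* (SE 0.47, adjusted p = 9.35e-05), 6.36 for *Lrrc52* (SE 0.25, adjusted p = 3.02e-05), 4.75 for *Kcnab1* (SE 0.23, adjusted p = 4.82e-05) and 3.18 for *Kcnma1* (SE 0.46, adjusted p = 0.00211), the last being 6.07 without SGN-like cells. *Chrna9* was higher by 4.37 (SE 0.59, adjusted p = 0.00156) and *Chrna10* by 2.32 (SE 0.51, adjusted p = 0.0121), both on few UMIs. *Kcna10*, *Lrrc52*, *Chrna9* and *Chrna10* again passed the filter on low counts through the hair cell class, so the size of their fold changes is poorly known. The *Chrna10* call was lost without P28 replicate 1 (1.71, from a fit with 1 residual degree of freedom). The pooled other cells hold classes at a like *Chrna10* level. At P28 DC/PC-like cells measured 13.8 ± 1.35 CPM beside 13.5 ± 7.18 in IHC-like cells, with overlapping ranges. At P14 bone cell-like (17.6 CPM, 2 UMIs) and DC/PC-like cells (13.7 CPM, 6 UMIs) stood beside IHC-like cells (11.9 CPM, 3 UMIs). *Kcnn2* was not called, at -0.54 (SE 0.41, adjusted p = 0.334), with ratios of 1.23, -0.74 and -0.75 on the log2 scale in the 3 libraries. Without the P14 library the *Kcnn2* value was -0.84, again from a fit with 1 residual degree of freedom. *Kcnn2* was past the threshold in 1 of 14 alternatives. Both hair cell comparisons share these other cells and are not independent of each other.

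SGN-like cells were compared with cells other than hair cells and SGNs at P28 alone (edgeR, 2 sums against 2 without a library term). Of the 6 genes that passed the filter on low counts, 5 were higher and none was lower; over 14932 genes 36.2% were higher and 42.5% lower. *Kcnma1* was higher by 6.44 on the log2 scale (SE 0.22, adjusted p = 1.75e-08), and *Kcnab1* by 2.63 (SE 0.22, adjusted p = 5.29e-06). *Lrrc52* was higher by 2.95 (SE 0.45, adjusted p = 0.000286) and *Kcna10* by 2.29 (SE 0.32, adjusted p = 0.000152), at levels of 3.22 and 4.01 CPM and of 9.94 and 7.10 CPM. On average the other cells held 0.42 CPM of *Lrrc52* and 1.59 CPM of *Kcna10*, and *Lrrc52* passed the filter through SGN-like cells. *Kcnn2* differed by 0.50 (SE 0.12, adjusted p = 0.00518) and *Chrna10* by 0.42 (SE 0.42, adjusted p = 0.386). The *Kcnn2* call was lost when cells were thinned to 1000 UMIs (0.24, adjusted p = 0.618), and its direction turned when at most 3000 genes and 15000 UMIs per cell were allowed (-0.43, adjusted p = 0.565). In the same classes with at most 3000 genes per cell, both the *Kcnn2* call (0.14, adjusted p = 0.834) and the *Kcnab1* call (1.73, adjusted p = 0.0683) were lost. In 1 SGN-like cluster of 178 cells *Kcna10* measured 37.5 and 28.6 CPM and *Ocm* 321 and 379 CPM, against 5.01 and 26.2 CPM of *Ocm* and 7.02 and 6.45 CPM of *Kcna10* in the largest SGN-like cluster. The part of hair cell transcripts in the SGN-like level of *Kcna10* was not tested.

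With 1 library at P14 no test was made between the ages, and a gene is described as differing where its Poisson interval at P14 overlapped neither P28 interval. In OHC-like cells this held for 4 of the 7 genes. *Kcna10*, *Chrna10* and *Kcnma1* were lower at P14, with P28 means over P14 of 2.97, 1.44 and 1.58. *Chrna9* was higher at P14, at 2.41 times the P28 mean. The receptor subunits thus lay in opposite directions, *Chrna9* higher and *Chrna10* lower at P14. Among 4138 genes at 50 CPM or more in OHC-like cells, 20.5% were above both P28 libraries at P14 and 22.8% below both, and of the 6 members at that level 1 was above and 3 were below. *Kcnn2*, *Lrrc52* and *Kcnab1* overlapped at least 1 P28 library. Among cells of at most 3000 genes, or with cells thinned to 1000 UMIs, *Kcna10* and *Chrna9* remained outside both P28 intervals, while *Chrna10* and *Kcnma1* overlapped at least 1 of them. *Kcna10* in thinned OHC-like cells measured 154, 595 and 588 CPM, and *Chrna9* 332, 165 and 130 CPM. Beside these differences, the summed OHC markers were higher at P14 (37328 against 23119 and 23225 CPM). Most of that sum was *Ocm* (31539 against 17150 and 17484 CPM), and *Slc26a5* was also higher at P14 (2038 against 532 and 653 CPM). The sum therefore does not give the direction of the other OHC markers. Mitochondrial UMIs were fewer at P14 (8.41% against 12.5% and 11.8%). Markers of other cell types in OHC-like cells also differed between the libraries, the P28 replicates included. The 5 red blood cell markers, all found, summed to 237 CPM at P14 and to 1252 and 7225 CPM at P28. The 4 fibrocyte markers, all found, summed to 123, 542 and 979 CPM. The 5 B cell markers summed to 2122, 6.08 and 26.7 CPM, with 1, 3 and 4 found. The P14 sum of that list was thus 1 gene and does not describe B cell markers as a set. In P14 cells other than hair cells the same list summed to 347 CPM. The part of these values in the age differences was not tested.

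**Figure D3:**
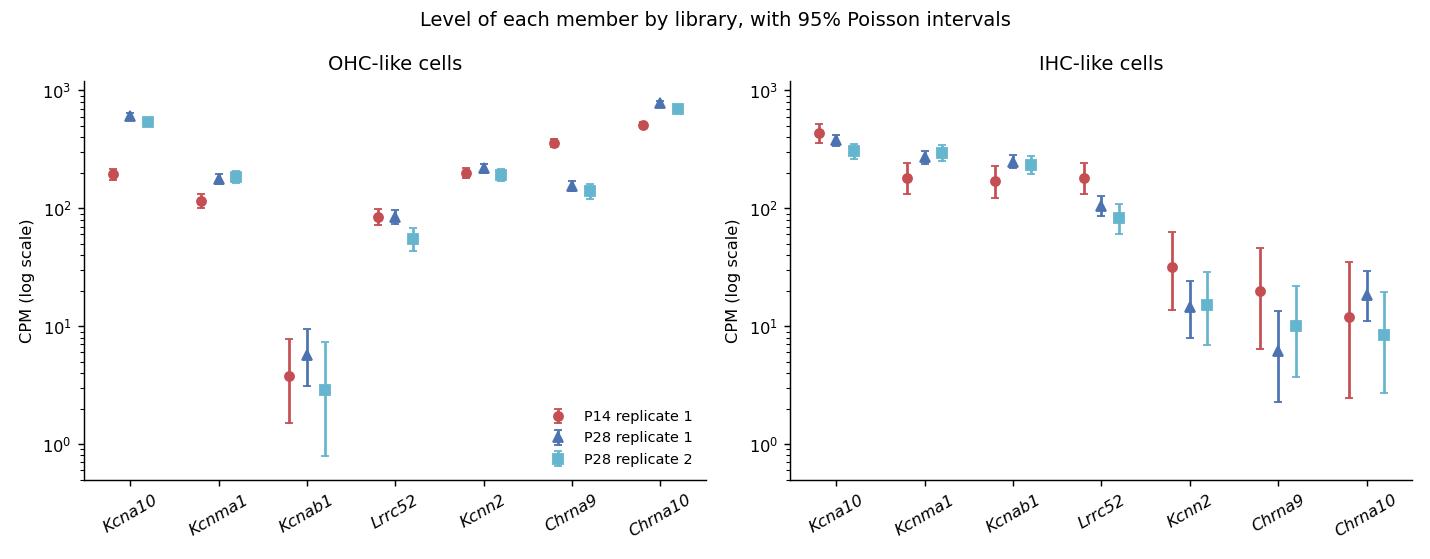
Level of each gene (CPM, log scale) in OHC-like cells (left) and IHC-like cells (right) in the P14 library and the 2 P28 libraries, with exact 95% Poisson intervals of the UMI counts. In OHC-like cells *Kcna10* is at 194 CPM at P14 and at 611 and 542 at P28, *Chrna9* at 355 and at 154 and 140, and *Kcnn2* lies between 192 and 219 in all 3.

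In IHC-like cells 1 of the 7 genes lay outside, *Lrrc52*, which was higher at P14 by 1.94 times the P28 mean. Among 4771 genes at 50 CPM or more, 10.8% were above both P28 libraries and 11.6% below both, and of the 4 members at that level 1 was above and none below. With cells thinned to 1000 UMIs no member lay outside, from 31 IHC-like cells at P14, and the share over all genes was not computed there. With at most 3000 genes and 15000 UMIs per cell, the 1 gene outside was *Kcnma1* instead, at 56.9 CPM in P14 cells from 4 UMIs against 270 and 384 CPM, and with the limit on genes alone it was again *Kcnma1*. With mitochondrial, ribosomal protein and haemoglobin genes left out of the total, the P14 interval of *Lrrc52* (151 to 276 CPM) overlapped that of P28 replicate 1 (103 to 153), while *Kcnma1* was lower at P14 (207 against 323 and 353 CPM). *Kcnma1* in all IHC-like cells measured 182, 270 and 296 CPM in the 3 libraries, and its P14 interval overlapped that of P28 replicate 1. For *Kcna10* in IHC-like cells the 3 intervals spanned 263 to 521 CPM, and that of P14 overlapped P28 replicate 1. Whether the ages differed by another amount in OHC-like than in IHC-like cells was not tested.

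OHC-like cells were not uniform. At P14 they fell into clusters of 201, 44 and 31 cells, and the cluster of 44 was led by *Calb1*, which encodes the calcium buffer calbindin, at 864 CPM against 150 CPM in the largest. *Lrrc52* measured 7.45 CPM in that cluster and 116 CPM in the largest, whereas *Kcna10* measured 326 and 141 CPM. After these values were seen, OHC-like cells of each library were grouped by their own *Calb1* UMIs, a description with no test. At P14 *Lrrc52* measured 147 CPM (120 to 179) in 145 cells with no *Calb1* UMI, 88.9 (59.1 to 128) in 46 cells with 1 and 34.2 (23.1 to 48.8) in 85 cells with 2 or more. In P28 replicate 1 it measured 98.9 CPM (83.7 to 116) in 253 cells, 71.7 (50.8 to 98.5) in 69 and 46.2 (27.8 to 72.2) in 42. In P28 replicate 2 it measured 60.2 CPM (46.2 to 77.2) in 224 cells, 57.2 (30.5 to 97.8) in 40 and 7.69 (0.195 to 42.9) in 20, the last from 1 UMI. In all 3 libraries the level of *Lrrc52* was thus lowest in the cells with most *Calb1*, and the intervals of the outer groups did not overlap. *Kcna10* went the other way, from 126 CPM (101 to 156) to 191 and 247 (216 to 283) at P14, from 565 (528 to 604) to 608 and 786 (702 to 876) in P28 replicate 1, and from 499 (457 to 544) to 603 and 777 (633 to 944) in P28 replicate 2, again with no overlap of the outer groups. *Chrna10* stayed within 467 to 549 CPM at P14, 727 to 819 in P28 replicate 1 and 672 to 761 in P28 replicate 2, with overlapping intervals between all groups of a library. *Chrna9* went from 305 to 375 CPM between the outer groups at P14, but from 162 to 119 and from 137 to 92.3 at P28, overlapping in each library. *Kcnn2* went from 206 (183 to 230) to 282 CPM (233 to 338) in P28 replicate 1, while its outer groups overlapped in the other libraries. *Kcnab1* had too few UMIs to read by group. *Kcnma1* measured 140, 105 and 99.2 CPM at P14, 189, 172 and 146 in P28 replicate 1 and 181, 216 and 162 in P28 replicate 2. It was thus also lowest in the cells with most *Calb1* in all 3 libraries, but the intervals of the outer groups overlapped in each. Cells with more *Calb1* UMIs were also deeper, with median UMIs of 4172, 6922.5 and 9229 at P14, 5131, 5579 and 7801.5 in P28 replicate 1 and 3643.5, 4789 and 3998 in P28 replicate 2. The part of depth in these differences was not tested.

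**Figure D4:**
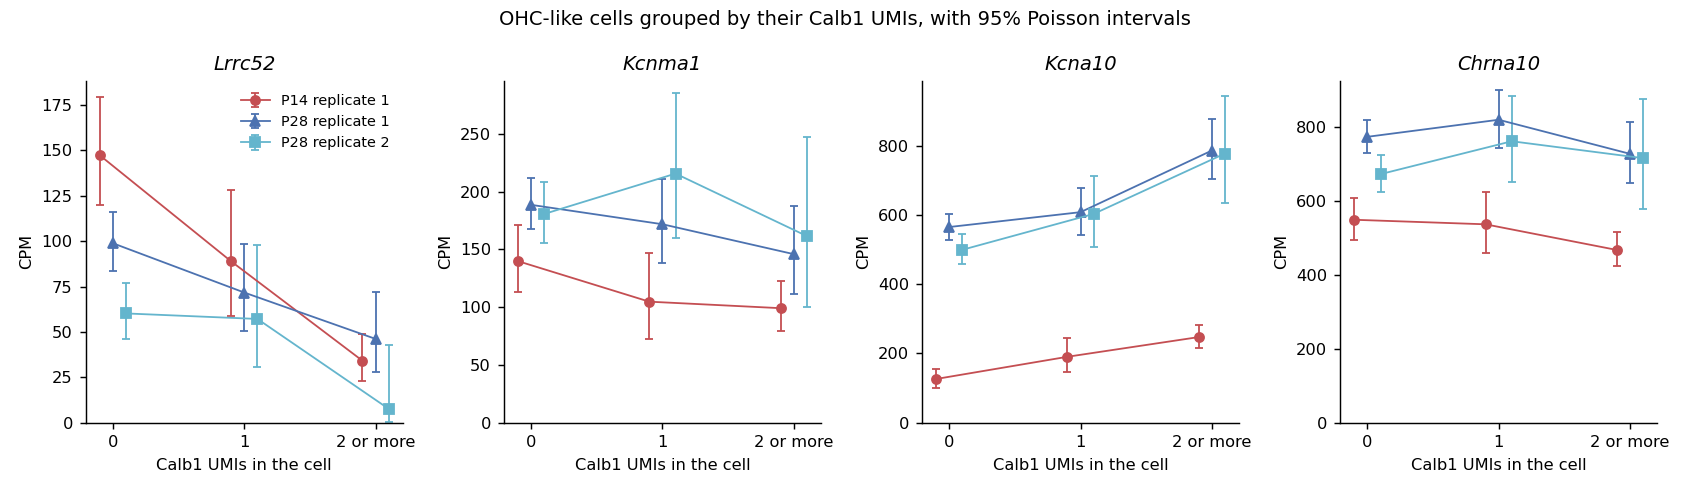
Level of *Lrrc52*, *Kcnma1*, *Kcna10* and *Chrna10* (CPM) in OHC-like cells with 0, 1 or at least 2 UMIs of *Calb1*, by library, with exact 95% Poisson intervals. From 0 to at least 2 *Calb1* UMIs *Lrrc52* goes from 147 to 34.2 CPM at P14, from 98.9 to 46.2 in P28 replicate 1 and from 60.2 to 7.69 in P28 replicate 2, while *Kcna10* is highest in the last group of each library.

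The other channel and receptor genes were read from 3 lists that leave the members out. Of 87 other potassium channel genes, 17 passed the filter in OHC-like against IHC-like cells, 6 were higher, 7 lower and 4 not called, with a median log2 fold change of 0.19 beside 0.06 over all genes. Over all genes tested 17.2% were higher and 18.1% lower. Higher in OHC-like cells were the Kv beta subunit gene *Kcnab2* (3.73, adjusted p = 0.00207, 22.3 against 1.68 CPM on average), the inward rectifier gene *Kcnj13* (2.86, adjusted p = 0.00717) and the tandem-pore channel gene *Kcnk2* (1.97, adjusted p = 0.00414). *Kcnab2* and *Kcnab1* encode beta subunits of the same family and thus differed in opposite directions between the hair cell classes. The IHC-like level of *Kcnab2* rests on very few UMIs, so the size of its fold change is poorly known. Lower in OHC-like cells were the inward rectifier genes *Kcnj16* (-3.32, adjusted p = 8.62e-07, 31.2 against 344 CPM) and *Kcnj10* (-3.08, adjusted p = 8.19e-06, 11.6 against 113 CPM) and the M-channel gene *Kcnq3* (-2.86, adjusted p = 0.0009). *Kcnj10* and *Kcnj16* are known from supporting cells, and supporting cell markers were also higher in IHC-like cells: the 5 markers of inner phalangeal and border cells summed to 464, 1908 and 1746 CPM there against 20.4, 177 and 200 CPM in OHC-like cells, with 4, 4 and 5 of the 5 found, and the 5 of Deiters and pillar cells to 297, 948 and 1122 against 25.2, 199 and 216 CPM, with 3, 5 and 5 found. Their part in these 2 differences was not tested.

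Of 17 nicotinic receptor and partner genes, 4 passed the filter, with 1 higher and 3 lower in OHC-like cells. Beside this, 17.2% of all genes tested were higher and 18.1% lower, so calls in both directions within so short a list say little about the list. *Ric3*, a chaperone of nicotinic receptors, was higher (0.71, adjusted p = 0.0308, 46.9 against 30.7 CPM). *Chrna1*, the alpha subunit gene of the muscle receptor, was lower (-3.11, adjusted p = 1.18e-05, 7.04 against 70.1 CPM), as was *Chrnb2*, a beta subunit gene of neuronal receptors (-1.26, adjusted p = 0.0218, 9.50 against 26.6 CPM). Nicotinic subunit genes therefore differed in both directions, with *Chrna1* higher in IHC-like cells and *Chrna9* and *Chrna10* higher in OHC-like cells. Against cells other than hair cells *Chrna1* was higher in IHC-like cells by 7.57 (adjusted p = 5.94e-05) and in OHC-like cells by 4.66 (adjusted p = 0.00567), and *Chrnb4* was higher in OHC-like cells by 5.97 (adjusted p = 0.00573) at a mean of 7.34 CPM. At that low level the size of the *Chrnb4* fold change is poorly known. Of 15 genes for channels that supply calcium, 6 passed, 3 higher, 1 lower and 2 not called in OHC-like cells. The calcium release channel gene *Ryr2* was higher by 6.27 (adjusted p = 2.37e-05, 39.6 against 0.561 CPM), the accessory subunit gene *Cacna2d4* by 2.03 (adjusted p = 0.000533) and *Cacna1d*, the pore of the main hair cell calcium channel, by 1.92 (adjusted p = 0.000679, 511 against 163 CPM). The IHC-like mean of *Ryr2* lies at the level of single UMIs. It thus passed the filter through OHC-like cells, and the size of its fold change is set by that floor. The accessory subunit gene *Cacna2d2* was lower (-2.20, adjusted p = 0.000721).

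**Figure D5:**
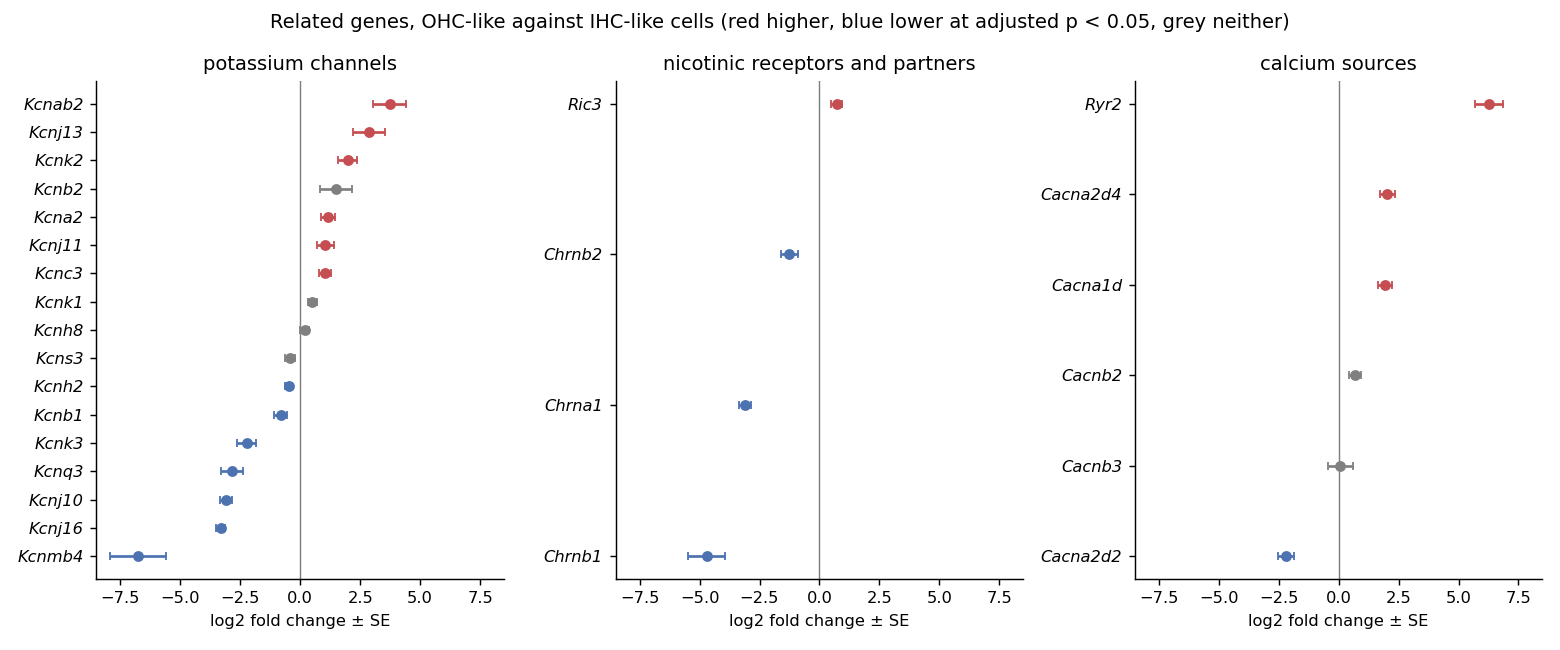
Log2 fold change (edgeR estimate ± SE) between OHC-like and IHC-like cells for the genes of the 3 lists that passed the filter, red where higher and blue where lower at an adjusted p under 0.05. Of the potassium channel genes 6 are red and 7 blue, of the nicotinic genes 1 and 3, and of the calcium source genes 3 and 1. Over all genes tested 17.2% were higher and 18.1% lower.

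Against cells other than hair cells, more of the other potassium channel genes were lower than higher in hair cells, as were more of all genes tested (31.3% lower and 25.4% higher for OHC-like, 25.1% and 12.8% for IHC-like cells). In OHC-like cells 7 of 42 tested were higher and 25 lower (median -2.76 beside -0.06 over all genes), led by *Kcnj13* (5.66, adjusted p = 0.00518), *Kcnh8* (5.39, adjusted p = 0.00418) and the modifier subunit gene *Kcns3* (3.27, adjusted p = 0.00595). In IHC-like cells 5 of 41 were higher and 17 lower (median -1.32 beside -0.28), led by *Kcnh8* (4.99, adjusted p = 0.000157), *Kcns3* (3.34, adjusted p = 0.000174) and *Kcnh2* (2.74, adjusted p = 0.000955). *Kcnh8* and *Kcns3* were thus among the potassium channel genes higher in both hair cell classes. Of the nicotinic genes 3 of 6 were higher in either class, with 1 lower in the OHC-like and 2 in the IHC-like comparison. Of the calcium source genes 5 of 14 were higher and 6 lower in the OHC-like class, the higher ones including *Cacna2d4* (7.32, adjusted p = 0.000493), *Ryr1* (5.95, adjusted p = 0.00077) and *Cacna1d* (2.88, adjusted p = 0.00133), and in IHC-like cells 2 of 13 were higher and 8 lower. In SGN-like cells, where 36.2% of all genes were higher and 42.5% lower, 31 of 54 potassium channel genes were higher and 18 lower, 5 of 6 nicotinic genes were higher and 1 lower, and 10 of 13 calcium source genes were higher and 2 lower. The other cells of the hair cell comparisons include these SGN-like cells, and the lists were not read with them left out.

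The genes most like each member were found by Pearson's correlation of log2(CPM + 10) over 43 points, each a class in a library, among 10208 genes. The points share libraries, so the values are a description only. Genes much like *Kcna10* were *Fscn2* (r = 0.98) and *Xirp2* (0.98), and genes much like *Lrrc52* were *Xirp2* (0.98) and *Popdc3* (0.98). *Fscn2* encodes a fascin that bundles actin in stereocilia, and *Xirp2* an actin-binding protein also found there. *Chrna9* was most like *Prph2* (0.96), *Cacna2d4* (0.95) and *Ankfn1* (0.94), and *Chrna10* most like *4930558C23Rik* (0.96), *1600022D10Rik* (0.95) and *Strc* (0.95), the gene of stereocilin. *Chrna9* and *Chrna10* correlated with each other at 0.94 and *Kcna10* with *Lrrc52* at 0.96. *Kcnma1* was most like *Cap2* (0.92), *Myorg* (0.91) and *Ica1l* (0.90), and *Kcnab1* most like *Tctex1d1*, *March4* and *Grin2c* (each 0.88). *Kcnn2* was least well matched, with *C1ql1* (0.77), *Hdgfl2* (0.76) and *Prob1* (0.75).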

How the data were processed

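Single-cell RNA-seq of dissociated mouse cochlea was analysed in 3 libraries (P14 replicate 1, P28 replicates 1 and 2) made with the 10x 3′ kit v3.1. For each library the authors deposited a sparse matrix of raw UMI counts, with no normalization. The file header names Cell Ranger 5.0.1, whereas the submitters' processing notes name Cell Ranger 6.0.1 and mm10; GENCODE M21 (GRCm38) holds 32235 of the 32285 gene identifiers. Reads of near-identical genes may have been lost or split in that counting.

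Barcodes with 200 to 6000 genes and at most 15% mitochondrial UMIs were kept, with genes seen in fewer than 3 barcodes left out of the counting. The median was 2475.5, 2421 and 2036 UMIs per cell, so a gene missing from a cell may be below detection. Cells were clustered in Seurat 5.3.0 (P14 alone, P28 after anchor integration; 2000 variable genes without the members and the listed genes, 30 principal components, resolution 1). Clusters were named from a marker list of 25 cell types, needing at least 3 markers that reached a log2 ratio of 1 to the median cluster and 5% of the cells. Scrublet called 3, 0 and 1 cells as doublets and was taken as not having worked, so no doublet was removed; the 5% with the highest scores were left out as an alternative.

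UMIs were summed per class and library and tested in edgeR 4.0.16 (quasi-likelihood test, TMM, filterByExpr, adjusted by Benjamini-Hochberg, called under 0.05). Each library gave both classes of a comparison, and their deviations from the class means correlated across genes. The values were 0.39 to 0.55 (OHC-like and IHC-like), 0.30 to 0.32 (OHC-like and other cells) and 0.18 to 0.21 (IHC-like and other cells), so the library was a term in these comparisons. In the SGN-like comparison the value was 0.18. There the term was left out of the main fit because it would leave 1 residual degree of freedom, and it was an alternative. The sources do not say whether the P28 libraries came from separate litters, so p-values measure the spread between these libraries. On simulated data with 200 genes changed 4-fold, 93.5% were recovered among 9499 genes for OHC-like against IHC-like cells, 90% among 13005 for OHC-like and 84.5% among 12674 for IHC-like against other cells, and 95% among 14933 for SGN-like cells; false calls numbered 10, 2, 4 and 10. The simulated means held no effect of library or age, so these figures leave out that source of spread. For the hair cell comparisons the simulations also began from a stricter filter on low counts than the tests, which kept 10271, 13827 and 13525 genes. The recovered shares thus leave out some low-count genes that were tested. A count of 0 was read as allowing up to 3 counts.

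The text names all 7 members, for each those of the 3 genes of most similar profile that are reported here, and from each of 3 lists up to 3 higher and 3 lower genes, those of largest fold change among the genes called in the hair cell class comparison, alike in sign in all 3 libraries and with 30 UMIs or more (higher genes only against other cells). The members and lists were chosen with earlier results of these data known. Alternatives were DESeq2 1.42.0, other normalizations (for levels, a CPM total that leaves out genes of mitochondria, ribosomal proteins and haemoglobins) and filters, stricter cell limits, thinning to 1000 UMIs, resolution 2, doublet and nucleus-like exclusions, no library term and each library left out. Results for some genes are withheld and not reported here. Versions were R 4.3.3, Python 3.11.15, numpy 2.4.6, scipy 1.17.1, pandas 2.3.3, scanpy 1.11.5 and matplotlib 3.10.9.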

Additional observations from a re-analysis of the deposited data

Results flagged for a closer look

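For *Kcna10* the OHC-like over IHC-like ratio on the log2 scale was -1.15 at P14 and 0.70 and 0.83 in the P28 libraries, so the P14 library had the opposite sign from both others. This difference between the ages was not tested. Class UMIs behind the P14 value were 362 of *Kcna10* in 276 OHC-like cells and 109 in 60 IHC-like cells.

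For *Kcnn2* the IHC-like over other cells ratio on the log2 scale was 1.23 at P14 and -0.74 and -0.75 at P28. This difference was not tested either, and the IHC-like values rest on 8, 14 and 9 UMIs.

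Barcodes outside the limits on genes and mitochondrial UMIs were used in no comparison and also held the members: 721 UMIs in 851 barcodes at P14, 3106 in 6299 barcodes of P28 replicate 1 and 2143 in 11131 barcodes of P28 replicate 2. All 7 genes had UMIs there, at 15.2 to 79.8, 8.54 to 88.2 and 4.92 to 47.8 CPM of those barcodes. Among barcodes with over 15% mitochondrial UMIs, *Chrna10* measured 271, 115 and 50.5 CPM, compared with 131, 80.3 and 42.7 CPM over all barcodes kept.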

How the results depend on the processing

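Each fold change and count was recomputed under up to 15 alternatives. The direction of *Kcnab1*, *Kcnn2*, *Chrna9* and *Chrna10* between OHC-like and IHC-like cells and its side of the threshold were kept in 14 of 14. Among the alternatives, resolution 2 gave the same cell and UMI numbers as the main setting in every class compared, so it is not a separate check. Reversed in sign were *Lrrc52* between OHC-like and IHC-like cells when cells were thinned to 1000 UMIs (log2 fold change 0.0074, adjusted p = 0.989), *Kcna10* between the same classes without P28 replicate 2 (-0.024, range over the left-out libraries -0.024 to 0.87), *Kcnn2* in IHC-like against other cells when thinned (0.64), *Kcnn2* in SGN-like cells with at most 3000 genes and 15000 UMIs (-0.43) and *Chrna10* in SGN-like cells without the 5% highest doublet scores (-0.20). The cause was not tested. The number of members called in SGN-like cells was 3 with at most 3000 genes and 15000 UMIs, 3 when thinned and 2 in the same classes with at most 3000 genes per cell (an alternative chosen after the data were seen), where fewer members were tested, against 5. In OHC-like cells 2 members lay outside both P28 intervals under each of these 3 alternatives, against 4, and leaving out the P14 cluster highest in *Calb1* (also chosen after the data were seen) gave 5, with *Lrrc52* added; in IHC-like cells 0 did when thinned, against 1. Leaving mitochondrial, ribosomal protein and haemoglobin genes out of the CPM total kept both numbers, but in IHC-like cells the gene was *Kcnma1* in place of *Lrrc52*. The share of all genes outside both P28 intervals was not computed under any of these alternatives. Fewer UMIs widen the interval of every gene, and the lower counts are not read as a result about the members. The OHC-like P28 mean over P14 of *Chrna10* was 1.44 in the main setting, 1.26 with at most 3000 genes and 15000 UMIs and 1.43 when thinned. For *Kcnma1* it was 1.58, 1.30 and 1.76. The part of interval width in the lower counts was not tested.

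*Kcnma1* between OHC-like and IHC-like cells was not past the threshold in DESeq2 (adjusted p = 0.0911), with at most 3000 genes and 15000 UMIs (0.682), in the same classes with at most 3000 genes (0.639), when thinned (0.536) or without the replicate block (0.198); without that block 4 members were called instead of 5. With a replicate block in the SGN-like comparison 5 members were called, as without it, and the block changed no other call. Leaving out 1 library left 1 sum a class from a P28 library in the SGN-like comparison, so no test was made there. In the other comparisons a fit with 1 library left out kept 1 residual degree of freedom. Its p-values rest on little information about the spread between libraries and are not printed for single members. In 2 cases a member not called in the main fit was past the threshold under an alternative. These were *Kcna10* between the hair cell classes and *Kcnn2* in IHC-like against other cells.

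The number of all genes called moved with the same choices. Between OHC-like and IHC-like cells it was 3630, against 2246 in DESeq2, 1064 with at most 3000 genes and 15000 UMIs, 1058 in the same classes with at most 3000 genes, 1028 when thinned and 1698 without the replicate block, and 1515 to 4920 with a library left out. It was 7837 for OHC-like against other cells (5144 when thinned, 1906 to 10451 with a library left out), 5125 for IHC-like against other cells (3119, 3063 and 2475 under the limits, in the same classes and when thinned, 1826 to 7775 with a library left out) and 11757 for SGN-like cells (4850, 5212 and 6879). Across all genes the median log2 fold change of OHC-like against other cells was -0.06 with TMM, -0.18 with the RLE normalization and -0.19 in DESeq2, small beside the members' called changes. IHC-like cells at P14 (60 cells, 252424 UMIs) had the fewest UMIs of the hair cell sums, and levels under about 12 CPM there rest on 3 or fewer UMIs.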
